A study of Mus musculus with 9 samples.

Results

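The genes described here were 8 non-classical (class Ib) MHC class I genes, H2-T24, H2-T10, H2-T22, H2-T23, H2-Q4, H2-Q6, H2-Q7 and H2-M3. They were picked by gene symbol from 23284 symbols, with the FPKM values of p16/p21-DKO against WT Mo-MDSCs in view, and because they lie on the chromosome of the deleted Cdkn1a. FPKM is a read level corrected for transcript length and for how many reads the sample had. All 8 symbols were in the files, and all 8 passed the filter on low values, a level of 1 FPKM or more in 3 or more of the 6 samples compared.

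MDSCs, immature myeloid cells that dampen T-cell responses, were taken from the spleens of mice carrying a spindle cell tumour (SCT), a line from a carcinogen-treated p16 knockout mouse. There were 3 groups of 3 samples. PMN-MDSCs (Ly6G+, the neutrophil-like subset) and Mo-MDSCs (Ly6G-Gr-1+, the monocyte-like subset) came from WT C57BL/6J mice, and a second group of Mo-MDSCs came from C57BL/6 mice labelled as a double knockout of p16 (Cdkn2a) and p21 (Cdkn1a). The groups are called PMN, WT Mo and DKO Mo samples below, and all 9 samples were from tumour-bearing mice. The deletion was carried in the whole animal, and DKO PMN-MDSCs were not analysed here. The labels give an age of 3 weeks, whereas the study's methods describe adult mice sampled 3 weeks after inoculation. Nothing in the labels says whether replicates were separate animals, so p-values measure only the spread between these samples, which may be technical.

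Classical class I molecules show peptides from inside the cell to CD8+ T cells and are expressed by nearly all nucleated cells. The non-classical molecules share their fold and, for most, their β2-microglobulin partner, but vary little between individuals and often serve a narrower set of receptors. H2-T23 encodes Qa-1, which presents leader peptides of other class I chains to the CD94/NKG2A receptor of NK cells. H2-T10 and H2-T22 encode molecules that bind no peptide and are ligands of a set of γδ T cells. H2-Q6 and H2-Q7 belong to the genes of the Qa-2 antigen, and H2-M3 presents peptides that begin with formyl-methionine, as bacterial peptides do.

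The 8 genes fell into 3 stretches of chromosome 17 in GENCODE M21 (GRCm38, the mm10 build to which the authors mapped their reads). H2-Q4 (chr17:35379617-35385290, plus strand), H2-Q6 (chr17:35424850-35430055, plus) and H2-Q7 (chr17:35439155-35443773, plus) lay together. H2-T24 (chr17:36005695-36020560, minus strand), H2-T23 (chr17:36029773-36032855, minus), H2-T22 (chr17:36037128-36042747, minus) and H2-T10 (chr17:36115876-36121465, minus) formed the second stretch. H2-M3 (chr17:37270220-37274484, plus) stood alone. Their start sites were 6.289 to 8.179 Mb from that of Cdkn1a (chr17:29090976-29100727). GENCODE marks H2-T10 as a polymorphic pseudogene and the other 7 as protein coding.

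Some of these genes are close copies of each other, which decides how far single values can be read. Over aligned coding bases H2-T10 and H2-T22 were 96.3% identical, with 42 differences in 1137 bases, and H2-Q6 and H2-Q7 were 95.4% identical, with 45 differences in 978 bases. H2-T24 stood farthest from the rest, at 62.8% to 65.4% identity with the other 7 members. H2-M3 was 64.0% to 73.1% identical to them. The 30 coding bases in which each close pair differed most are shown as examples of sequence that can tell reads apart. Differing bases are in capitals.

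H2-T10: ggattgttgccaCggttttTTCCAtTttGC
H2-T22: ggattgttgccaTggttttCATTTtGttCA
H2-Q6: ggcgaAcGtAgctAttCtggttgTccttgT
H2-Q7: ggcgaCcAtTgctGttGtggttgAccttgG

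The H2-T10 and H2-T22 windows, at chr17:36118981-36119010 and chr17:36040270-36040299 on the minus strand, differed at 9 of 30 bases. The H2-Q6 and H2-Q7 windows, at chr17:35428295-35428324 and chr17:35442706-35442735 on the plus strand, differed at 7 of 30.

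**Figure D1:**
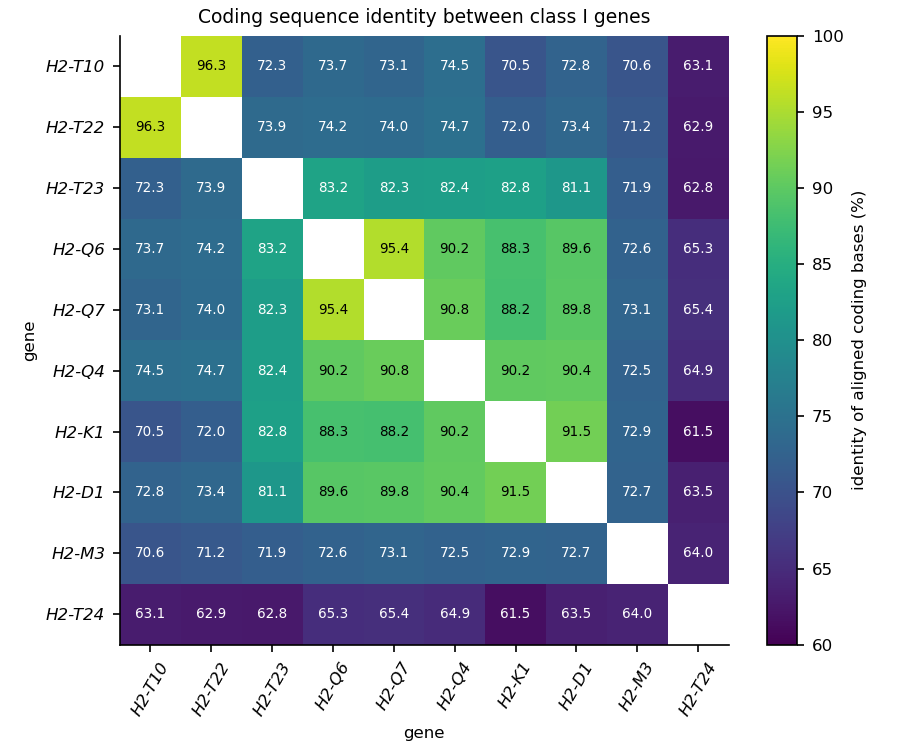
Percent identity of aligned coding bases between each pair of the 8 genes and the classical genes H2-K1 and H2-D1, with 1 transcript per gene. H2-T10 with H2-T22 (96.3%) and H2-Q6 with H2-Q7 (95.4%) are the closest pairs, and H2-T24 has no partner above 65.4%.

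The sequencing reads were 75 bases long. Every 75-base stretch of each gene's spliced transcripts was therefore searched for in the GENCODE M21 transcripts of all other genes. H2-M3 shared 0 of 1364 stretches, and H2-T24 shared 10 of 2178 (0.5%). For H2-T10 it was 20.7%, all with H2-T22, and for H2-T22 it was 23.7%, mostly with H2-T10. H2-Q7 shared 22.6%, H2-Q6 17.9%, H2-T23 13.1% and H2-Q4 7.9%. H2-Q8 and H2-Q9, which have rows in the files, were matched to no position in the annotation. Stretches shared with them may therefore be missing from these shares. The values of H2-T24 and H2-M3 thus rested almost wholly on sequence found in no other annotated transcript, whereas reads of H2-T10, H2-T22, H2-Q6 and H2-Q7 could have been divided between copies by the authors' programs. H2-T9, which has its own row in the files, has no gene of that name in the annotation, so neither its shared stretches nor its likeness to the members was measured. RefSeq gives the name only as a synonym of Gm7030, a separate row in the files at 0 FPKM in all WT Mo samples and 0.48, 0.51 and 0.33 in DKO Mo samples.

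Of the 8 genes, H2-Q4, H2-Q6, H2-Q7, H2-T22, H2-T23 and H2-M3 had an entry among the RefSeq promoters (GRCm38.p6, 250 bases before to 50 after the start). The core of the interferon-stimulated response element, GAANNGAAA on either strand, was in the window of H2-Q4, H2-Q6, H2-Q7 and H2-M3, and in 7.52% of 32851 promoters. The 30 bases around it are shown with the motif in capitals. H2-Q4, H2-M3 and the pair of H2-Q6 and H2-Q7 differ in FPKM level but share the motif, while H2-Q6 and H2-Q7 overlap in level.

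H2-Q4: atctccccagTTTCACTTCtgctcctaact
H2-Q6: atctccccagTTTCACTTCtgctcctaacc
H2-Q7: atctccccagTTTCACTTCtgctcctaacc
H2-M3: tcctctgaggTTTCACTTCtctgtaactct

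These lay on the plus strand at chr17:35379454-35379483, chr17:35424688-35424717, chr17:35439032-35439061 and chr17:37270123-37270152. The letters GGATTCCCC, a κB-type element of class I promoters, were found on either strand in H2-Q6 alone among the 6 genes and in 0.28% of all promoters. The CCAAT box was in all 6 and in 37.41% of promoters. A match of letters is no evidence that a factor binds there.

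Total FPKM per sample was 711675 to 916642 in PMN samples, 549976 to 618250 in WT Mo samples and 494252 to 534354 in DKO Mo samples, and relative depth, read from the steps that a single read makes in low genes, ranged from 0.809 to 1.31. The summed FPKM of 8 neutrophil markers was 97000 to 222000 in PMN samples, 15600 to 54300 in WT Mo samples and 6070 to 15000 in DKO Mo samples, and that of 8 monocyte markers was 938 to 992, 2070 to 2350 and 1680 to 1840. Other cells were present in every group: B-cell markers summed to 1430 to 1630, 1020 to 1150 and 1090 to 1370 FPKM, and macrophage markers to 4930 to 5830, 3050 to 3910 and 3250 to 5000. The NK-cell markers summed to no more than 4.52 FPKM in any sample, the T-cell markers to no more than 28.1 and the dendritic-cell markers to no more than 9.38, while the erythroid markers summed to 1260 to 2940 over all groups. The targeted genes gave no check of the labels, because Cdkn1a was 5.55, 8.52 and 6.00 FPKM in the libraries labelled DKO and 8.18, 6.46 and 8.04 in WT Mo samples. Cdkn2a was below 1.5 FPKM everywhere (0.26, 0.59 and 0 in DKO, 0.72, 0.77 and 0.43 in WT Mo samples). The exons deleted are not given in the sources used here, and DKO below stands for the libraries labelled so.

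In all 3 groups H2-T23 was the highest of the 8 genes and H2-T10 the lowest, on the length-scaled FPKM values. H2-T23 averaged 323.2 ± 27.4 FPKM (SD, n = 3) in PMN samples, 233.3 ± 14.6 in WT Mo samples and 200.8 ± 13.6 in DKO Mo samples, and H2-T10 averaged 6.03 ± 0.87, 7.79 ± 0.96 and 20.6 ± 1.36. H2-Q4 came second in every group. H2-T24 changed its place most, from the third rank in PMN samples to the sixth in WT Mo samples and back to the third in DKO Mo samples. H2-Q6 and H2-Q7 were neighbours in each group with overlapping ranges, and H2-M3 and H2-T22 overlapped in DKO Mo samples. All other neighbours had ranges that did not overlap. The 8 genes summed to 727.2 ± 45.0 FPKM in PMN samples, 603.1 ± 34.2 in WT Mo samples and 691.9 ± 5.88 in DKO Mo samples, and without H2-T24 to 647.2 ± 40.7, 561.4 ± 33.4 and 575.9 ± 10.9.

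**Figure D2:**
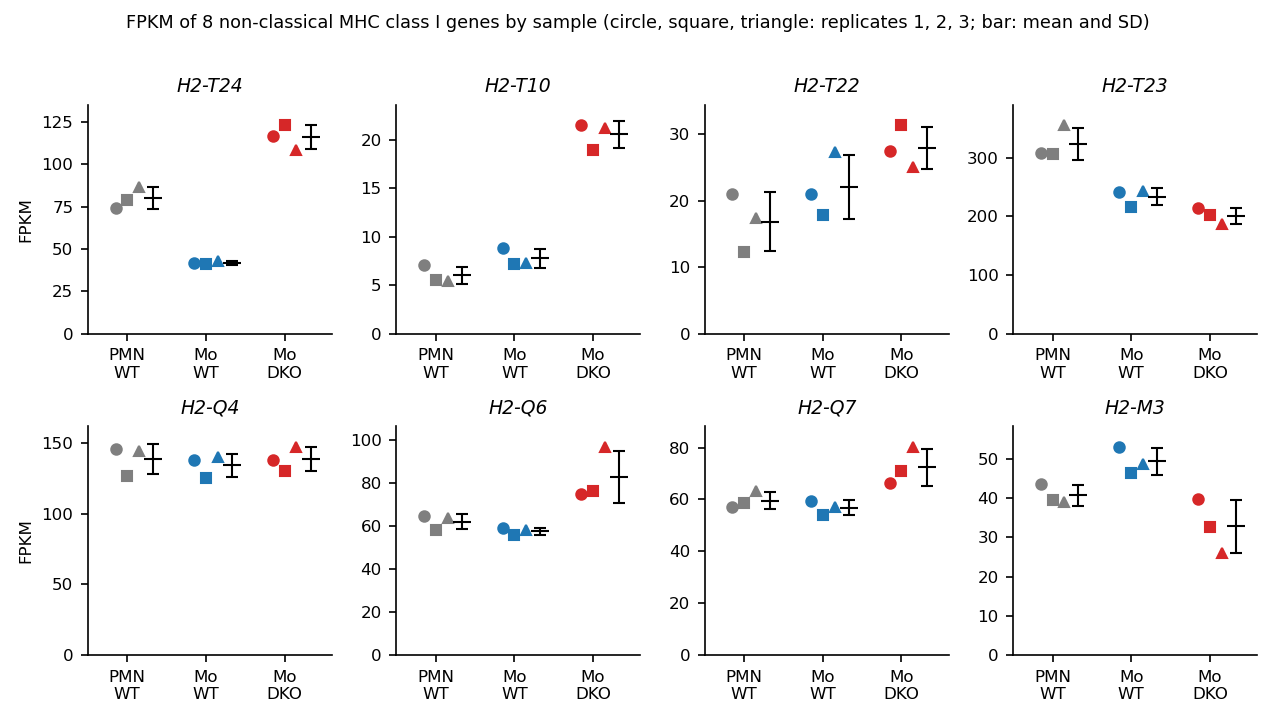
FPKM of each gene (vertical axes, each from 0) in the 9 samples by group; symbols are replicates and bars the mean and SD of 3. H2-T24 falls from PMN to WT Mo and is highest in DKO Mo (108.5 to 122.9 FPKM), H2-T10 is about 20 FPKM in DKO against 9 or less elsewhere, and H2-Q4 lies at 125 to 147 throughout.

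The comparison of WT Mo-MDSCs with WT PMN-MDSCs asks how the subsets differ in WT mice. H2-T24 and H2-T23 fell in Mo-MDSCs, H2-M3 rose slightly, and the 3 Q genes and the H2-T10 and H2-T22 pair did not pass the test. With limma on log2(FPKM + 0.1) and Benjamini-Hochberg adjustment over all 11491 genes tested, 3 of 8 genes were called at an adjusted p below 0.05, 1 higher and 2 lower. Over all genes 39.1% were called, 18.5% higher and 20.6% lower, so the members' share was near the background. The members' median log2 fold change was -0.06 and that of all genes 0.01. The ranges of the samples did not overlap for 4 of 8 members and for 52.5% of all genes. The study's fold change and p threshold, stated for genes higher in Mo-MDSCs, was applied here with unadjusted limma p-values to all genes tested. The study does not say whether its p was adjusted. The threshold marked 0 members and 3.55% of all genes, and when extended here to both directions 0 members and 10.2% of all genes. At an unadjusted limma p below 0.05, whatever the fold change, were 4 of 8 members and 5554 of all 11491 genes, so this count too was near the background.

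H2-T24 was 74.4, 78.8 and 86.8 FPKM in PMN samples and 41.4, 41.0 and 43.0 in WT Mo samples. The groups lay far apart compared with their spread, at a log2 fold change of -0.93 (SE 0.08, adjusted p = 0.000165), or 0.524 of the PMN level. H2-T23, the Qa-1 gene, was 308, 306 and 355 FPKM in PMN samples and 241, 216 and 242 in WT Mo samples. Every Mo-MDSC sample was below every PMN-MDSC sample, and the log2 fold change was -0.47 (SE 0.09, adjusted p = 0.00706). After quantile normalization the H2-T23 difference was -0.03 (adjusted p = 0.709) and with equal totals -0.03 (adjusted p = 0.827), so its call depended on the scaling. H2-T24 stayed called under both, but the size of its difference depended on the scaling too. Its log2 fold change was -0.72 after quantile normalization and -0.49 with equal totals. Over the 18 alternatives the adjusted p ranged from 0.000883 to 0.827 for H2-T23 and from 2.06e-05 to 0.00534 for H2-T24.

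H2-M3 was 43.7, 39.4 and 39.0 FPKM in PMN samples and 53.1, 46.4 and 48.8 in WT Mo samples, higher in every Mo sample. Its log2 fold change was 0.28 (SE 0.08, adjusted p = 0.0364). This call was lost when any of 4 libraries was left out: PMN-MDSC replicate 2 (adjusted p = 0.0949) or 3 (0.103), or WT Mo-MDSC replicate 1 (0.115) or 3 (0.0905). Over the 18 alternatives the adjusted p ranged from 0.00299 to 0.139.

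H2-T10 was 7.04, 5.58 and 5.47 FPKM in PMN samples and 8.89, 7.19 and 7.28 in WT Mo samples, with every Mo value above every PMN value, at a log2 fold change of 0.37 (SE 0.14, adjusted p = 0.0744). H2-T22 was 20.96, 12.3 and 17.3 FPKM in PMN samples and 20.97, 17.9 and 27.3 in WT Mo samples. Its groups overlapped, at a log2 fold change of 0.40 (SE 0.23, adjusted p = 0.2). Replicate numbers paired these samples, and with the number as a block both genes were called (adjusted p = 0.00611 for H2-T10 and 0.0396 for H2-T22), which took the count of members called from 3 to 5, while the share of all genes called rose from 39.1% to 57.3%. H2-T10 was also called without PMN-MDSC replicate 1 (adjusted p = 0.0329). Over the 18 alternatives, which include sums of near copies, the adjusted p ranged from 0.00611 to 0.317 for H2-T10 and from 0.00649 to 0.474 for H2-T22. The 0.317 belongs to the sum of H2-T10 with H2-T22 and H2-T9, and the highest value for H2-T10 alone was 0.2.

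None of the Q genes was called as deposited. H2-Q4 was 146, 126 and 144 FPKM in PMN samples and 138, 125 and 140 in WT Mo samples (log2 fold change -0.05, 95% interval -0.26 to 0.16). H2-Q6 was 64.4, 57.9 and 63.8 FPKM against 58.9, 55.8 and 58.1 (-0.11, interval -0.28 to 0.07), and H2-Q7 was 57.0, 58.5 and 63.2 against 59.5, 53.9 and 57.0 (-0.07, interval -0.25 to 0.11). The groups overlapped for all 3. With equal totals, a scaling that moved the median of all genes from 0.01 to 0.45, all 3 were called higher in Mo-MDSCs (adjusted p = 0.0129, 0.0315 and 0.0177), with log2 fold changes of 0.40, 0.34 and 0.37 that were below that median. After quantile normalization H2-Q4 was called higher (0.29, adjusted p = 0.0222). Over the 18 alternatives the adjusted p ranged from 0.0129 to 0.975 for H2-Q4, from 0.0315 to 0.83 for H2-Q6 and from 0.0177 to 0.849 for H2-Q7. The 0.83 belongs to the sum of H2-Q6 to H2-Q9, and the highest value for H2-Q6 alone was 0.522.

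The remaining class Ib and class I-like genes were mostly scarce: of 47 listed, 40 were in the files and 11 were tested in this comparison. H2-Q10, which encodes a secreted class I chain known from the liver, had by far the largest difference of these 11. It was 224, 282 and 273 FPKM in PMN samples and 0.80, 2.88 and 2.28 in WT Mo samples, a log2 fold change of -7.12 (SE 0.41, adjusted p = 3.33e-05) that ranked 12th in size of all genes tested. In PMN-MDSCs H2-Q10 thus exceeded every member except H2-T23, and its neighbour H2-Q7 showed no such step. Ulbp1, a stress ligand of the NKG2D receptor, rose from 1.77, 2.02 and 1.87 FPKM to 3.49, 3.41 and 3.96 (log2 fold change 0.91, adjusted p = 0.00184). H2-T9 fell (log2 fold change -0.57, adjusted p = 0.0162). In all, 1 of the 11 rose and 2 fell, beside 39.1% of all genes called. With the replicate block 5 of the 11 were called, beside 57.3% of all genes.

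Among 23 genes of class I assembly and regulation, 3 rose and 8 fell, with a median log2 fold change of -0.12. The background for these genes and for the receptor genes below is 39.1% of all genes called, 18.5% higher and 20.6% lower. The classical heavy chain H2-D1 fell from 2060, 2080 and 2486 FPKM to 1182, 1115 and 1220 (log2 fold change -0.91, adjusted p = 0.000948). H2-K1, the other classical chain, had a log2 fold change of -0.20 (adjusted p = 0.138), and B2m, the shared light chain, fell by 0.42 on the log2 scale (adjusted p = 0.0412). Nlrc5, the transactivator of class I genes, went the other way, from 12.7, 10.2 and 11.8 FPKM to 22.5, 18.9 and 19.1 (log2 fold change 0.80, adjusted p = 0.00175). The interferon regulatory factors Irf1 (-0.82, adjusted p = 0.000421) and Irf2 (-0.53, adjusted p = 0.00313) fell. Of 8 receptor genes tested, 2 rose and 3 fell, led by Klra17 (Ly49Q, an inhibitory receptor of myeloid cells for classical class I), which fell by 5.24 on the log2 scale (adjusted p = 1.17e-05). Lilra6 (-1.74, adjusted p = 1.87e-05) and Lilrb4 (-1.09, adjusted p = 0.00188) fell too, and Pira6 rose (0.81, adjusted p = 0.00276). The macrophage and B-cell markers were also higher in PMN samples, with summed levels in separate ranges as given above, and their part in the falls of H2-T24, H2-T23 and H2-D1 was not tested. In bulk samples, fewer cells of a type and less RNA per cell cannot be told apart.

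**Figure D3:**
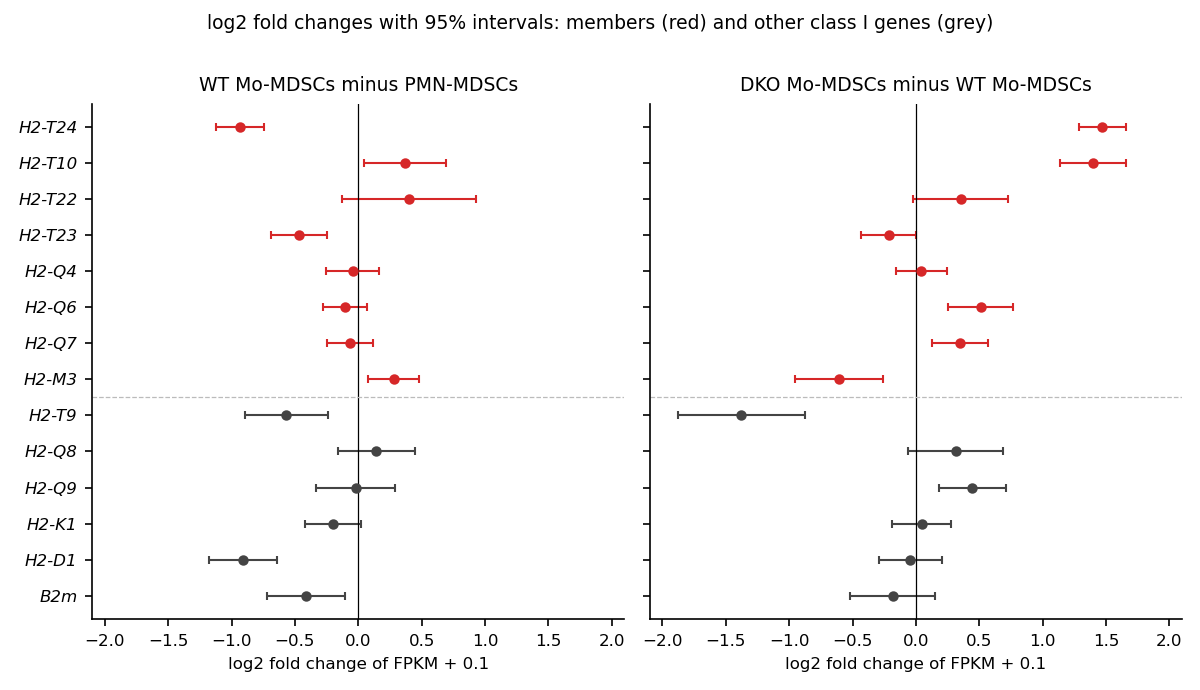
Difference in log2(FPKM + 0.1) with 95% intervals from limma for the 8 genes (red) and other class I genes (grey), WT Mo-MDSCs minus PMN-MDSCs on the left and DKO minus WT Mo-MDSCs on the right. H2-T24 lies at -0.93 on the left and 1.47 on the right, and H2-T9 at -1.38 on the right opposite H2-T10 at 1.40.

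The comparison of DKO with WT Mo-MDSCs asks what the loss of p16 and p21 goes with in these cells. Since the genes were chosen with this contrast in view, their values are a description and no p-value is given for them. H2-T24 and H2-T10 were more than doubled in DKO, H2-Q6 and H2-Q7 lay higher and H2-T23 and H2-M3 lower without being called, and H2-T22 and H2-Q4 overlapped between the groups. Of the 8 genes, 2 were called higher and 0 lower by limma, beside 0.253% of 11451 genes called, 0.166% higher and 0.0873% lower. The DKO range was wholly above the WT range for 4 genes and wholly below for 2, beside 20.8% of all genes without overlap. The study's fold change and p threshold, stated for genes lower in DKO, was again applied with unadjusted limma p-values to all genes tested. It marked 1 member, H2-M3, and 4.43% of all genes, and when extended here to both directions it marked 4 members and 7% of all genes. Nothing is read from these counts, since the choice of the members used this contrast. The members' median log2 fold change was 0.35, and that of all genes was -0.02.

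H2-T24 was 41.4, 41.0 and 43.0 FPKM in WT Mo samples and 116.7, 122.9 and 108.5 in DKO Mo samples. It was 2.77-fold higher in DKO (log2 fold change 1.47, SE 0.08), and the DKO values also exceeded all 3 PMN-MDSC values. The log2 fold change ranged from 1.43 to 1.52 when each sample was left out in turn and was 1.46 in replicates 2 and 3, whose library numbers belong to a later series. Hmox1, the haem-degrading enzyme abundant in splenic red pulp macrophages, had the pattern most like that of H2-T24 over the 9 samples (Pearson r = 0.984), averaging 1910 FPKM in PMN samples, 1260 in WT Mo samples and 2640 in DKO Mo samples. Itgb3bp (r = 0.951) and Cd74, the MHC class II invariant chain (r = 0.938), followed. The macrophage markers had a median log2 fold change of 0.22 in DKO against WT and were higher in the mean for 5 of 5, with none called. Their summed FPKM was 4930 to 5830 in PMN samples, 3050 to 3910 in WT Mo samples and 3250 to 5000 in DKO Mo samples. In the same comparison B-cell markers had a median of 0.25 (5 of 5 higher) and erythroid markers of 0.39 (6 of 6 higher). Neutrophil markers had a median of -1.34 (7 of 8 lower) and monocyte markers of -0.52 (7 of 8 lower). None was called in these lists either. The part of these cells in the differences of H2-T24 and the other members was not tested.

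H2-T10 was 8.89, 7.19 and 7.28 FPKM in WT and 21.5, 19.0 and 21.2 in DKO Mo samples. The groups were separated by more than 10 FPKM, a 2.63-fold difference (log2 fold change 1.40, SE 0.11, and 1.46 in replicates 2 and 3). H2-T22, its near copy, was 20.97, 17.9 and 27.3 FPKM in WT and 27.5, 31.3 and 25.0 in DKO, with overlapping ranges and a log2 fold change of 0.35 (SE 0.16). H2-T9 had the opposite sign, with 24.5, 26.0 and 19.0 FPKM in WT and 11.5, 6.38 and 9.22 in DKO. Its log2 fold change of -1.38 (SE 0.22) was the largest of the 10 other class Ib and class I-like genes tested. Of these 10, 0 were called by limma (adjusted p = 0.0748 for H2-T9) and 2 had an unadjusted p below 0.05. Among all 11451 genes tested, 0.253% were called and 1719 had an unadjusted p below 0.05.

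The summed FPKM of H2-T9, H2-T10 and H2-T22 differed little between the groups, at 58.3, 52.8 and 60.3 in PMN samples, 54.4, 51.1 and 53.6 in WT Mo samples, and 60.5, 56.7 and 55.4 in DKO Mo samples. The DKO against WT difference of this sum was 0.12 on the log2 scale (SE 0.08, 95% interval -0.06 to 0.30), compared with 1.40 for H2-T10 alone and 0.71 (SE 0.12) for H2-T10 with H2-T22. What differed was the make-up of the sum. H2-T9 made up 52.0%, 66.2% and 62.2% of it in PMN samples, 45.1%, 50.9% and 35.4% in WT Mo samples, and 19.0%, 11.2% and 16.6% in DKO Mo samples. H2-T10 made up 9.07% to 12.1%, 13.6% to 16.4% and 33.5% to 38.3%. The sum was formed after the values had been seen. FPKM values do not show whether expression or the division of shared reads differed, and which of them did was not tested.

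**Figure D4:**
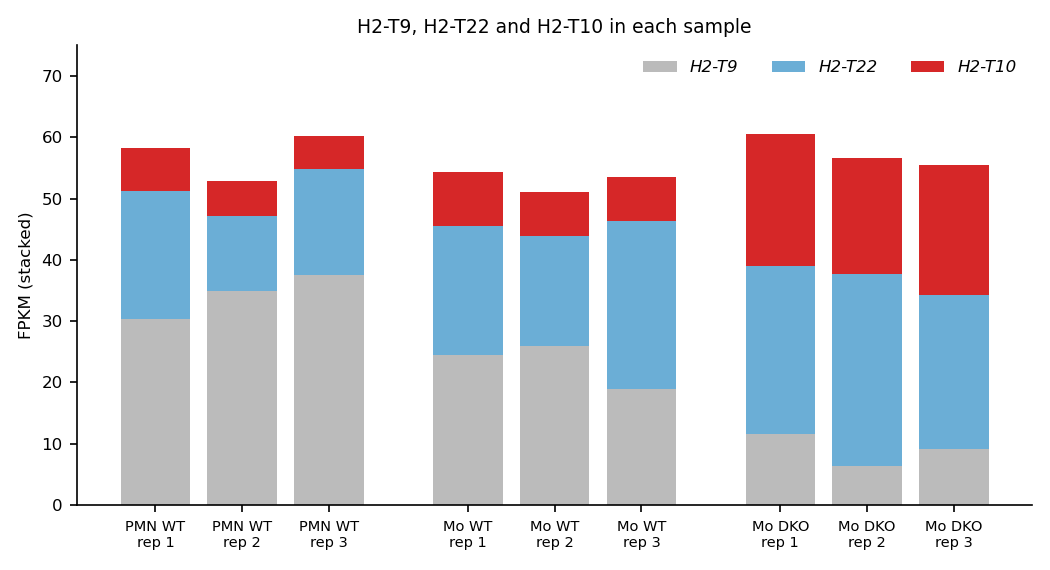
Stacked FPKM of H2-T9, H2-T22 and H2-T10 in each of the 9 samples. Bar heights lie between 51.1 and 60.5 FPKM in all samples, while in DKO the H2-T9 part is 6.38 to 11.5 FPKM and the H2-T10 part 19.0 to 21.5 FPKM.

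The Qa-2 genes had smaller differences, and none of H2-Q6 to H2-Q9 was called. H2-Q6 was 58.9, 55.8 and 58.1 FPKM in WT and 75.1, 76.3 and 96.8 in DKO Mo samples (log2 fold change 0.51, SE 0.11), and H2-Q7 was 59.5, 53.9 and 57.0 against 66.3, 70.9 and 80.3 (0.35, SE 0.10). For both genes every DKO value was above every WT value, and replicate 3 was the highest. H2-Q8 (0.32, SE 0.16) and H2-Q9 (0.45, SE 0.11), whose sequences were not compared here, had differences of like size. The summed FPKM of H2-Q6 to H2-Q9 was 196, 177 and 198 in WT and 229, 235 and 295 in DKO (0.40, SE 0.12). The ratio of H2-Q6 to H2-Q7 stayed between 0.989 and 1.21 in all 9 samples. H2-Q4, with 138, 125 and 140 FPKM in WT and 138, 130 and 147 in DKO, overlapped (log2 fold change 0.04, SE 0.09).

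H2-M3 and H2-T23 had lower values in DKO, and neither was called. H2-M3 was 53.1, 46.4 and 48.8 FPKM in WT and 39.8, 32.6 and 26.1 in DKO Mo samples, a log2 fold change of -0.61 (SE 0.15), with all DKO values below all WT values and, for replicates 2 and 3, below all PMN-MDSC values. H2-T23 was 241, 216 and 242 FPKM in WT and 213, 203 and 186 in DKO (-0.22, SE 0.09), also without overlap. With equal totals the H2-T23 difference was -0.06, while the median of all genes moved to 0.14. Over the 9 samples H2-M3 varied inversely to H2-Q6 (Pearson r = -0.884) and H2-Q7 (r = -0.89), and H2-Q6 and H2-Q7 varied together (r = 0.956). These are descriptions over 9 samples that share 3 groups and, for the Q genes, part of their sequence.

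The classical class I genes did not show these differences. H2-K1 was 967, 844 and 903 FPKM in WT and 944, 943 and 912 in DKO Mo samples (log2 fold change 0.05, 95% interval -0.19 to 0.28), H2-D1 had a log2 fold change of -0.04 (interval -0.29 to 0.20) and B2m of -0.18 (interval -0.52 to 0.15). Nlrc5 (0.14, interval -0.16 to 0.45) and Irf1 (0.07, interval -0.14 to 0.29) also overlapped between the groups. None of the 23 assembly and regulation genes was called by limma (1 had an unadjusted p below 0.05), and their median log2 fold change was -0.04. Of 8 receptor genes 0 were called, with 1 at an unadjusted p below 0.05. For all 11451 genes tested, the background was 0.253% called and 1719 at an unadjusted p below 0.05.

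The nearest patterns among 11520 genes over the 9 samples were, for H2-T10, 3110052M02Rik (Pearson r = 0.983), Ppp2r1b (0.972) and 9030025P20Rik (0.971). For H2-T23 they were Bloc1s2 (0.994), Lonp2 (0.994) and Phyh (0.993), for H2-Q6 Ncoa3 (0.99), 1700021K19Rik (0.978) and Smcr8 (0.978), and for H2-Q7 Hspa9 (0.97), Nnt (0.96) and Ncoa3 (0.947). H2-T22, H2-Q4 and H2-M3 had nearest patterns at r = 0.937 (D2Wsu81e and Agtpbp1), 0.929 (Nipbl) and 0.942 (Mrpl32). The samples share 3 groups, so high values are common in such a search.

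Around Cdkn1a, 305 genes with a matched position within 10 Mb of its start were tested in DKO against WT Mo-MDSCs. Their median log2 fold change was -0.05. Tested genes without a matched position, H2-T9, H2-Q8 and H2-Q9 among them, are left out of all counts by position. Of the 305 genes, 5 were called, all higher, which is 1.64% beside 0.253% of all genes. The members H2-T24 and H2-T10 were 2 of the 5, and without the 8 members the share was 1.01% (3 of 297). On the rest of chromosome 17 it was 0.74% (2 of 269). The other 3 were noticed only after their values were seen. Glo1, the methylglyoxal-clearing glyoxalase, lay 1.536 Mb from Cdkn1a and was 25.2, 35.1 and 25.9 FPKM in WT and 56.8, 72.4 and 65.7 in DKO. Gm8801, close to H2-T24 at 6.856 Mb, was 0 FPKM in all 3 WT Mo-MDSC samples and 1.05, 1.65 and 1.56 in DKO, so its plotted difference depends on the 0.1 FPKM added. Prss29, a serine protease gene on the other side of Cdkn1a (distance -3.772 Mb), was 0.09, 0.76 and 0.64 FPKM in WT and 19.0, 15.7 and 13.5 in DKO. Gm8801 and Prss29 were below 1 FPKM in every WT Mo sample, so they passed the filter on low values only through the DKO samples. H2-T24 and H2-T10 were chosen with this contrast in view. The shares called by position are therefore descriptions, and nothing is read from them. Between H2-Q4 and H2-M3, 33 non-member genes were tested, 1 of them, Gm8801, was called, and their median log2 fold change was -0.04. Of the 29 genes called in all, 26 had a position in GENCODE and 7 of these, H2-T24 and H2-T10 included, were on chromosome 17. That chromosome held 305 tested genes within 10 Mb of Cdkn1a and 269 elsewhere, of 11451 tested in all. The DKO and WT mice carry different strain labels, and effects of the deletions and of linked DNA cannot be told apart in this design.

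**Figure D5:**
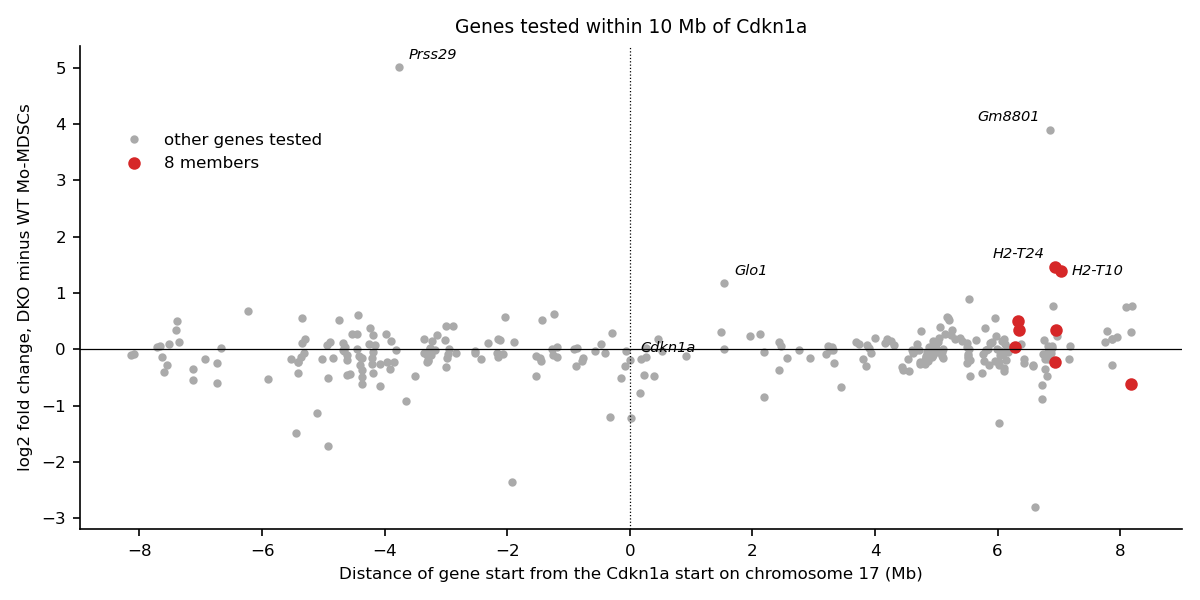
Difference in log2(FPKM + 0.1) between DKO and WT Mo-MDSCs (vertical axis) for 305 genes with a matched position, by the distance of their start from that of Cdkn1a in Mb. The 8 genes (red) lie 6.289 to 8.179 Mb away and spread from -0.61 to 1.47, and Glo1, Gm8801 and Prss29 are the other genes called.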

How the data were processed

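Samples were grouped and numbered as labelled. The authors made stranded mRNA libraries, sequenced single 75-base reads and mapped them to mm10 with TopHat2 2.0.13, Bowtie2 2.2.3 and SAMtools 0.1.19, and they deposited FPKM values from Cuffnorm 2.2.1 for each gene symbol. The gene annotation and scaling are not given in the sources used here. Read numbers are unknown, and precision is given by the standard errors (median 0.118 and 0.122 on the log2 scale in the 2 comparisons). Genes that reached 1 FPKM in 3 or more of 6 samples were fitted as log2(FPKM + 0.1) with limma 3.58.1 (R 4.3.3, eBayes with trend), which understates changes of low genes, and p-values were adjusted by Benjamini-Hochberg over all genes. The script was tested on simulated data.

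In WT Mo-MDSCs and PMN-MDSCs same-numbered samples deviated together from their group means (r = 0.603, 0.675 and 0.578 over 10622 genes), so the numbers were taken to pair these samples. This comes from the data, since the labels name no shared animal or day. Replicate 1 of each group has a library number from an earlier series than replicates 2 and 3.

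The members and gene lists were chosen with earlier results of these data known. Named were the members, Cdkn1a, Cdkn2a, B2m, H2-K1, H2-D1, Nlrc5, up to 4 called genes per list with the largest change, and the 3 genes most like each member. The alternatives were other pseudocounts, filters and scalings (quantile normalization and equal totals), all 9 samples in 1 fit, no variance moderation, the replicate block, replicates 2 and 3 only, sums of near copies, the study's thresholds and leaving out each sample. Sequences came from GENCODE M21 and RefSeq (GRCm38), handled with Python 3.11.15, pandas 2.3.3, numpy 2.4.6 and Biopython 1.88, and plotted with matplotlib 3.10.9.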

Additional observations from a re-analysis of the deposited data

How the results depend on the processing

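In WT Mo-MDSCs against PMN-MDSCs, leaving out 1 sample at a time gave 2 to 4 members called, 2 to 4 other class Ib genes, 9 to 10 assembly and regulation genes and 3295 to 3864 genes in all. The replicate block gave 5 members, 5 other class Ib genes and 6584 genes in all, against 4492 without it. Other class Ib genes called were 5 without the filter, 5 after quantile normalization, 7 with equal totals and 1 at the study's thresholds. Equal totals gave 7 members and 6771 genes, replicates 2 and 3 alone 2960 genes, and the study's thresholds, extended to both directions, 0 members, 0 assembly genes and 1172 genes. Of calls over all genes 2121 were higher and 2371 lower as deposited, 2508 and 2061 after quantile normalization, and 5821 and 950 with equal totals. The sign turned for H2-Q4 (0.29 and 0.40 after quantile and total scaling, 0.005 without WT Mo-MDSC replicate 2), H2-Q6 (0.11 and 0.34) and H2-Q7 (0.15 and 0.37), with all 3 called under total scaling and H2-Q4 after quantile normalization, and H2-T10 and H2-T22 summed with H2-T9 gave -0.11. The H2-M3 call was also lost with all 9 samples in 1 fit (adjusted p = 0.139), without variance moderation (0.0639) and with replicates 2 and 3 only (0.0757).

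In DKO against WT Mo-MDSCs the 29 calls over all genes became 13 without the filter, 51 with all 9 samples, 0 without variance moderation, 12 with replicates 2 and 3 only, 801 at the study's thresholds, and 8 to 25 without 1 sample (9 without WT replicate 1 or 3, 12 without DKO replicate 1 or 2, 8 without DKO replicate 3). H2-Q4 changed from 0.04 to -0.006 without WT replicate 2 and to -0.001 without DKO replicate 3. Members called were 2 without any 1 sample, 0 without variance moderation, 1 with either sum of copies and 4 at the study's thresholds. Other class Ib genes called were 1 without the filter, 1 with all 9 samples and 2 at the study's thresholds. For this pair of groups the same-numbered correlations were 0.543, 0.152 and -0.134, so the numbers were not taken to pair these samples. DKO replicate 2 with WT replicate 3 gave 0.293, and DKO replicate 3 with WT replicate 2 gave 0.284. Replicate 1 against replicate 2 or 3 gave -0.457 to -0.136, and replicate 1 has the earlier library numbers. The replicate block gave 20 calls in all and 2 members. The cause of these shifts was not tested. All of these values are limited by 3 samples a group, and shared reads limit the values of near copies.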
